A study of Mus musculus with 4 samples.

Results

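The region described here covers 700 kb of mouse chromosome 19, from 44700001 to 45400000 in the mm8 build. It holds 3 developmental transcription factor genes, Pax2 near 44.81 Mb, Tlx1 near 45.2 Mb and Lbx1 near 45.29 Mb. The region was chosen by its H3K27me3 reads relative to whole-cell extract (WCE), which were high in many of its tiles, so these values are given as a description, with no test, and nothing is supported with them. It makes up 175 of the 657675 tiles of 4 kb, and 700 of the 2630664 tiles of 1 kb, that cover chromosomes 1 to 19, X and Y.

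Chromatin immunoprecipitation followed by sequencing was carried out in MDER 10T cells, fibroblasts in which estrogen can induce MyoD1 according to the series title. The labels mention no estrogen given to the cells. The 4 libraries are H3K27me3, H3K4me3, H3K9me3 and WCE, which is chromatin sequenced without immunoprecipitation, and all 4 come from cells grown in medium without phenol red and with 10% serum. Each group is 1 library, so replicate spread cannot be measured, and a call below contrasts the reads of 1 mark library with those of WCE, not conditions. Per the labels, chromatin was sheared to an average of 500 bp and amplified for 18 cycles, and gel bands of 150 to 350 bp, which hold inserts of 50 to 200 nt, were kept. Fibroblast markers could not be checked, because no gene positions in mm8 were used here. The positions of the 3 genes are those stated for the region, rounded to 10 kb, and no signal below is assigned to a promoter.

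H3K27me3 is written by the Polycomb repressive complex PRC2 and is known for covering genes of developmental regulators in cells that do not use them. H3K4me3 is typical of promoters rich in CG dinucleotides, and the presence of both marks at the same promoter is called bivalent. H3K9me3 is typical of heterochromatin. PAX2 is a paired-box factor needed for the kidney, the inner ear and the optic nerve. TLX1, also known as HOX11, is a homeobox factor needed for the spleen, and LBX1 is a homeobox factor of migrating limb muscle precursors and of dorsal spinal cord neurons.

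RefSeq promoter entries of the members are shown because Polycomb domains and H3K4me3 are both known for CG-rich starts. The table held 3 entries for Pax2 and 1 for Tlx1, and Lbx1 was not among them. Sequences are from RefSeq, build GRCm38.p6, forward strand, and give the 250 bases before the start, with each CG dinucleotide in capitals. They were not placed on mm8, and their coordinates cannot be compared with those of the read counts.
Pax2, chr19:44746351-44746600: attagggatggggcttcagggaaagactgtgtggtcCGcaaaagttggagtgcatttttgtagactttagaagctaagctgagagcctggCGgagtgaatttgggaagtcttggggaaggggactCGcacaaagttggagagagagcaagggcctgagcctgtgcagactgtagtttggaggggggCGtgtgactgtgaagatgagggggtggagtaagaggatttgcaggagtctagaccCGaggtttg
Pax2, chr19:44755502-44755751: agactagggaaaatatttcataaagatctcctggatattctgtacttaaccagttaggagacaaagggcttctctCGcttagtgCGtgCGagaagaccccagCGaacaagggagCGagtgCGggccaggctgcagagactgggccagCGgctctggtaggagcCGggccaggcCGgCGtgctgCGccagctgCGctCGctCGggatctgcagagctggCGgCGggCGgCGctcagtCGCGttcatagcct
Tlx1, chr19:45150465-45150714: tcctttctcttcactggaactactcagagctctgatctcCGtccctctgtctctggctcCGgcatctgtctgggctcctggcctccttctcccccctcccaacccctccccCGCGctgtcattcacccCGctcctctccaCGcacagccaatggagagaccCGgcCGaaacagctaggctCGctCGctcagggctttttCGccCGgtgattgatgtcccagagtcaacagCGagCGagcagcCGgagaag
The CG dinucleotide reads the same on both strands. The first Pax2 entry had 7 of them in its full 300 bases, a number reached by 52.1% of the 32851 RefSeq promoter entries. The second Pax2 entry had 23, reached by 21.5% of entries, and the third, which is not printed, had 30, reached by 11.7%. The Tlx1 entry had 16, reached by 33.0% of entries. Pax2 thus has starts that differ widely in CG content, and all 4 entries were at or above the median of 7 over all entries.

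The region held 4765 H3K27me3, 3100 H3K4me3, 1490 H3K9me3 and 1857 WCE reads, counted once per signed position, out of 2933567, 3086567, 2101444 and 2977697 autosomal reads. Forward and reverse reads were nearly equal in number in every library (2363 and 2402 for H3K27me3, 924 and 933 for WCE), and repeated positions made up 6.07 to 7.28% of the reads listed there. After scaling to equal autosomal totals, the region as a whole stood at 2.60 times WCE for H3K27me3 (95% exact interval 2.47 to 2.75), 1.61 times for H3K4me3 (1.52 to 1.71) and 1.14 times for H3K9me3 (1.06 to 1.22). All intervals cover counting error only, since each group is 1 library. PCR copies left after the collapse could not be told from separate molecules, so even this error may be understated. The 4 kb tiles at 45144001, 45236001 and 45240001 held no read in any library, so nothing was measured there.

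A tile was called for a mark when a one-sided exact binomial test of mark against WCE reads, with Benjamini-Hochberg adjustment over all tiles of the genome, gave an adjusted p under 0.05 and the scaled ratio was at least 2. H3K27me3 was called in 45 of the 172 tested 4 kb tiles of the region (26.2%), where 0.624% of tested tiles were called over the genome; the region was chosen for this contrast, and nothing is read from the count. The tiles just inside the threshold held 36 H3K27me3 and 12 WCE reads at 45192001 (ratio 3.05) and 33 and 10 reads at 45208001 (3.35). Those just outside held 27 and 7 reads at 44900001 (3.92) and 37 and 13 at 44772001 (2.89). In all, 59 tiles of the region reached a ratio of 2 without being called, with a median ratio of 2.66.

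Called tiles separated by gaps of at most 8 kb were joined, and groups of at least 3 called tiles are termed domains. The region held 6 such domains in full, with a total length of 216 kb, 30.9% of the region, and they took in 41 of the 45 called tiles. A further group of 4 called tiles, from 44688001 to 44704000, crosses the lower end of the region. It is not among the 6, and its part in the region is counted as outside the domains. The total length depends on the processing: it was 352 kb with scaling by 100 kb bins, where 73 tiles were called, 128 kb against the larger of tile and local WCE, and 30 kb in 3 domains with 1 kb tiles. Over the genome the same procedure gave 268 domains with a median length of 20 kb and a longest of 96 kb. Inside the 6 domains together there were 2651 H3K27me3 and 530 WCE reads, a ratio of 5.08 (4.62 to 5.58), and in the 484 kb outside them 2114 and 1327 reads, a ratio of 1.62 (1.51 to 1.73). The stated position of each of the 3 genes lay in a domain of its own, which is named after that gene below. The extents of the genes were not placed, so a gene may reach into a further domain. The other 3 domains lay below the Pax2 domain, above it and above the Lbx1 domain.

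**Figure D1:**
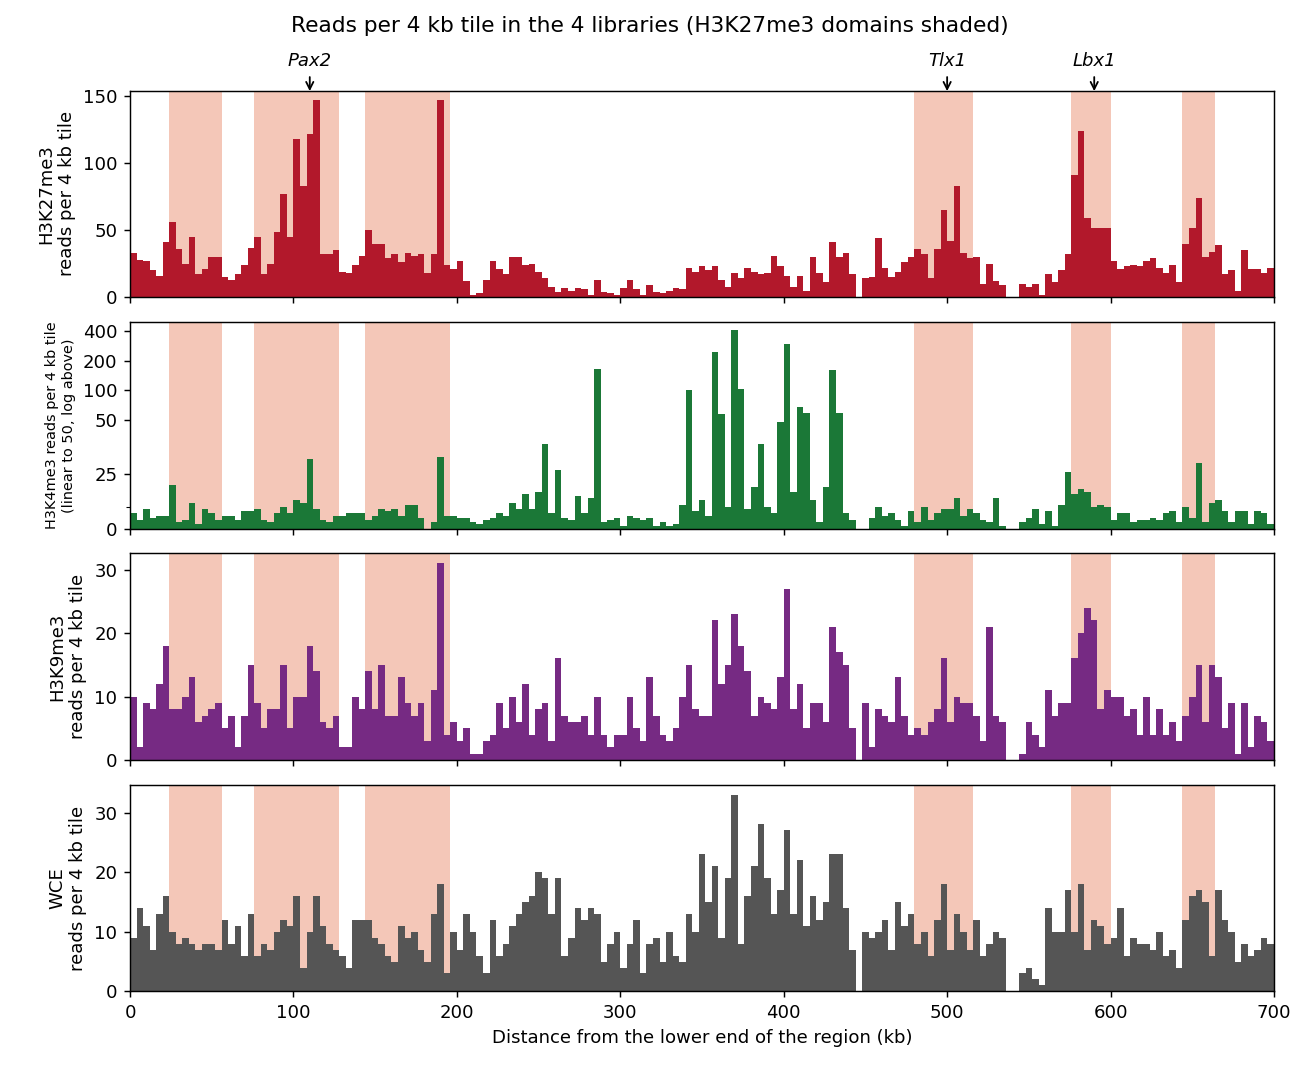
Reads per 4 kb tile along the region in the H3K27me3, H3K4me3, H3K9me3 and WCE libraries, against the distance in kb from the lower end of the region, with the 6 H3K27me3 domains shaded and the stated gene positions marked by arrows. The H3K4me3 axis is linear to 50 reads and logarithmic above. The highest H3K27me3 bars, at 147 reads, stand in the Pax2 domain and at the upper end of the third domain, while the H3K4me3 bars over 100 reads all stand in the long gap between the third domain and the Tlx1 domain.

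The Pax2 domain ran for 52 kb, from 44776001 to 44828000, with 10 of its 13 tiles called. It held 827 H3K27me3, 119 H3K4me3, 120 H3K9me3 and 126 WCE reads. Its H3K27me3 ratio was 6.66 (5.52 to 8.10), and only 6 domains of the genome were longer. H3K27me3 was not level within it: the 4 adjoining tiles from 44800001 to 44816000 held 118, 83, 122 and 147 H3K27me3 reads against 16, 4, 10 and 16 WCE reads, while the 9 other tiles held 17 to 77. The tile at 44812001, with 147 H3K27me3 and 16 WCE reads (ratio 9.33, 5.55 to 16.7), shared rank 14 of all tiles in the genome by H3K27me3 reads. In 1 kb tiles, 11 were called in this domain, between 44795001 and 44815000, where 0.0418% of tested 1 kb tiles were called over the genome. The 1 kb tile at 44804001 held 32 H3K27me3 and 0 WCE reads, so its ratio is undefined. The lower limit of its exact interval was 8.31. With WCE set to a floor of 3 reads the ratio would be 10.8, which is not a lower limit.

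The third domain, next above the Pax2 domain, was equally long, 52 kb from 44844001 to 44896000, with 9 of 13 tiles called. It held 534 H3K27me3, 111 H3K4me3, 138 H3K9me3 and 116 WCE reads, and its H3K27me3 ratio was 4.67 (3.82 to 5.76). It consisted of a plateau and a peak. The 12 tiles other than the one at 44888001 held 18 to 50 H3K27me3 reads each, whereas that tile held 147 H3K27me3, 33 H3K4me3, 31 H3K9me3 and 18 WCE reads. In 1 kb tiles the peak reached 62 H3K27me3 reads at 44889001, against 8 WCE reads (ratio 7.87, 3.75 to 19.02). The first domain, 32 kb from 44724001 to 44756000, was weaker, with 260 H3K27me3 and 65 WCE reads (4.06, 3.08 to 5.41), 5 of 8 tiles called and no tile above 56 H3K27me3 reads.

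The Tlx1 domain ran for 36 kb, from 45180001 to 45216000, with 7 of 9 tiles called. It held 370 H3K27me3, 71 H3K4me3, 73 H3K9me3 and 91 WCE reads, a ratio for H3K27me3 of 4.13 (3.27 to 5.25). Its highest tile, at 45204001, held 83 H3K27me3 and 13 WCE reads (6.48, 3.59 to 12.7), and a single 1 kb tile was called, that at 45204001, with 30 and 2 reads. No tile around Tlx1 exceeded 83 H3K27me3 reads, whereas 3 tiles did so in the Pax2 domain.

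The Lbx1 domain was the shortest of the domains named after a gene, 24 kb from 45276001 to 45300000, and all 6 of its tiles were called. It held 430 H3K27me3, 82 H3K4me3, 101 H3K9me3 and 66 WCE reads, and its H3K27me3 ratio of 6.61 (5.09 to 8.71) was close to that of the Pax2 domain. H3K27me3 reads were concentrated at its lower end, with 91 and 124 reads in the tiles at 45276001 and 45280001, and 52 to 59 in the 4 others, against 7 to 18 WCE reads in all 6. The sixth domain, 20 kb from 45344001 to 45364000, held 230 H3K27me3 and 66 WCE reads (3.54, 2.68 to 4.72), with its highest tile at 45352001, where 74 H3K27me3, 30 H3K4me3, 15 H3K9me3 and 17 WCE reads were counted.

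Compared over 20 kb centred on the stated positions, the window of Pax2 held 502 H3K27me3 and 57 WCE reads, a ratio of 8.94 (6.79 to 11.97). That of Lbx1 held 339 and 56 reads, a ratio of 6.14 (4.62 to 8.31), and that of Tlx1 held 255 and 60 reads, a ratio of 4.31 (3.25 to 5.81). WCE reads, at 57, 56 and 60, differed little among the windows of Pax2, Lbx1 and Tlx1.

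**Figure D2:**
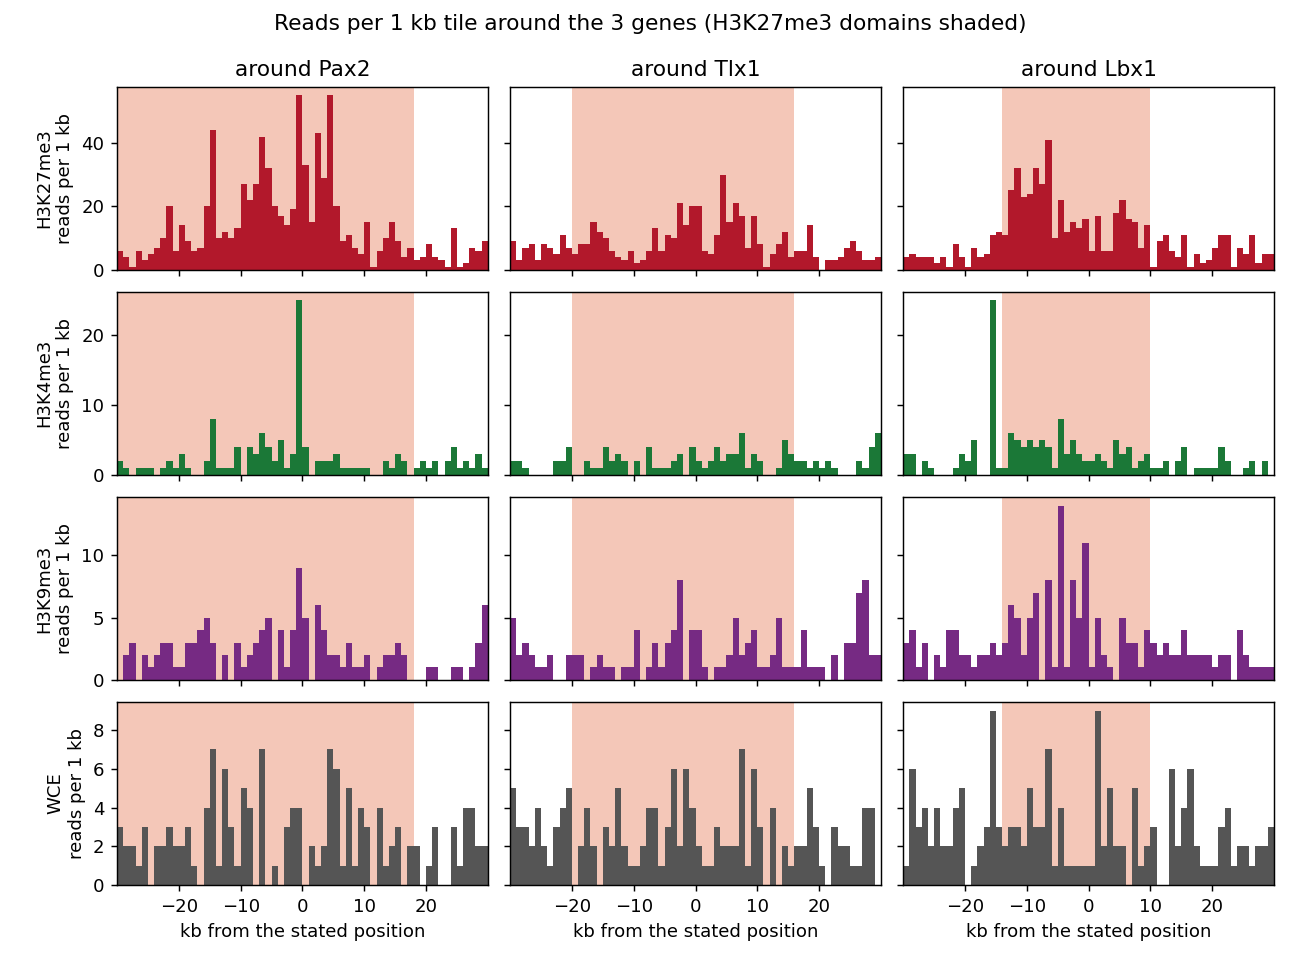
Reads per 1 kb tile within 30 kb of the stated positions of Pax2, Tlx1 and Lbx1, in the 4 libraries, with H3K27me3 domains shaded. Around Pax2, H3K27me3 reached 55 reads per kb beside a narrow H3K4me3 peak of 25 reads, around Tlx1 it did not exceed 30 reads per kb, and around Lbx1 a 25-read H3K4me3 peak stood just outside the domain.

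The edges of the domains were located in 1 kb tiles, as the step in H3K27me3 count with the largest Poisson likelihood within 12 kb of the called edge. For 11 of the 12 edges H3K27me3 was higher inside, by 1.71 to 4.64 times, and for 4 edges the step was at least 3-fold. The steepest was the upper edge of the third domain, placed at 44894001, with 20.2 reads per kb inside and 4.36 outside, where WCE had 3.30 and 2.21. The other marks fell at this edge too, H3K9me3 from 4.6 inside to 1 outside and H3K4me3 from 4.2 to 1.14. The lower edge of the Lbx1 domain, at 45277001, followed with 23.9 reads per kb inside and 5.69 outside, where WCE had 3 on both sides. There H3K9me3 had 5.18 inside and 2.15 outside, and H3K4me3 had 4.55 and 3. At the lower edge of the sixth domain, at 45345001, H3K27me3 had 14.8 reads per kb inside and 4.31 outside, but WCE also stepped, with 4.09 inside and 1.31 outside. At the upper edge of the Tlx1 domain, at 45210001, H3K27me3 had 17.8 inside and 5.72 outside, and WCE 3.33 inside and 2 outside. The edges of the Pax2 domain were shallow. H3K27me3 had 7.83 reads per kb inside and 4 outside at the lower edge, where WCE had 2.11 and 2.17. At the upper edge H3K27me3 had 8.80 inside and 5.14 outside, but WCE also stepped, with 2.40 inside and 1.71 outside. The set of positions within 2 log-likelihood units of the best, with this reach of 12 kb, spanned at most 5 kb for 11 of the 12 edges. These include the lower edge of the Tlx1 domain, where H3K27me3 was not higher inside. The exception was the upper edge of the sixth domain, with a set from 45356001 to 45367001.

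At the lower edge of the Tlx1 domain no rise was found: the strongest step, at 45187001, ran the other way, with 3.60 reads per kb on the domain side and 7.32 on the outer side. With a search reach of 20 kb the step was placed at 45197001 instead. The reach also moved the upper edge of the first domain to 44739001 and the edges of the Pax2 domain to 44794001 and 44816001, around its tall core.

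Outside the steps both H3K27me3 and WCE were above their genome means. The outer side of the 11 edges had 3.75 to 5.92 H3K27me3 reads per kb, where the mean over all tiles of the genome with a read in any library was 1.25. WCE had 1.31 to 3 reads per kb on the same outer sides, where its genome mean was 1.27, so the excess in H3K27me3 reads is in part shared with WCE. In the gaps between domains the H3K27me3 ratio was 2.15 (1.52 to 3.08) between the first domain and the Pax2 domain, 2.75 (1.83 to 4.20) between the Pax2 domain and the third, and 2.87 (2.24 to 3.71) between the Lbx1 domain and the sixth. It was 1.88 (1.47 to 2.40) in the 60 kb between the Tlx1 and Lbx1 domains, where 2 of the 15 tiles were empty and WCE held 106 reads. Over the 284 kb between the third domain and the Tlx1 domain the ratio was 1.25 (1.15 to 1.37), the lowest of the gaps.

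**Figure D3:**
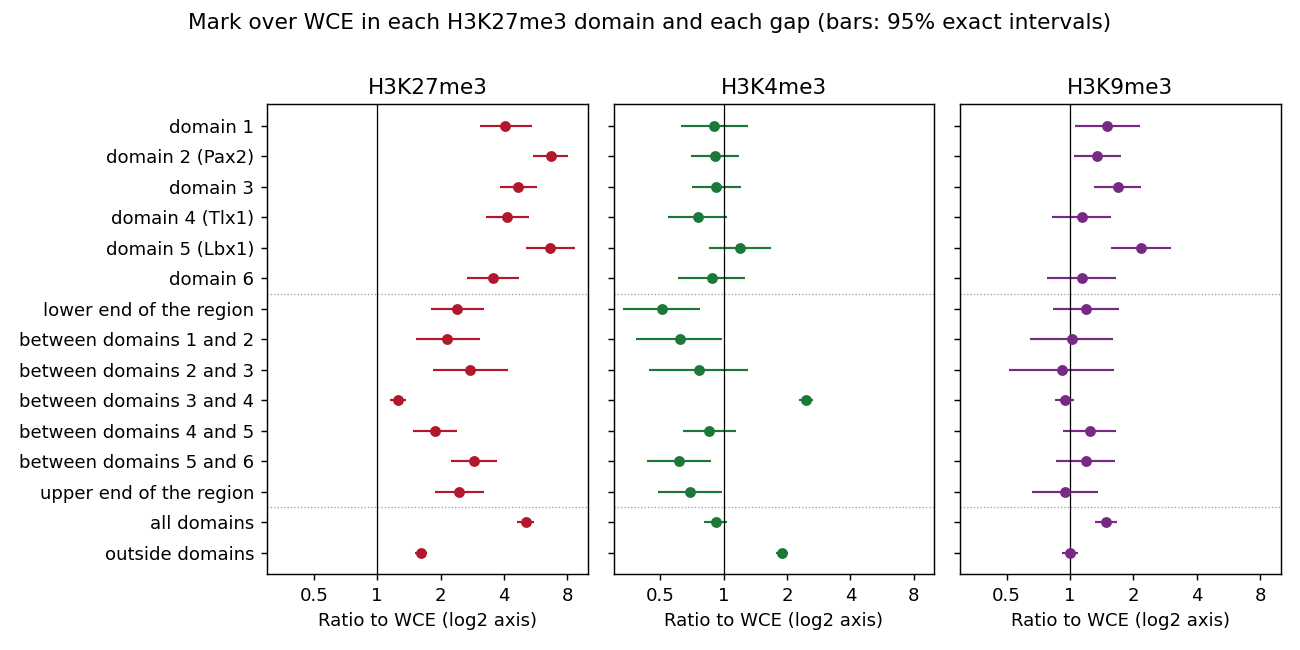
Ratio of each mark to WCE, scaled to equal autosomal totals, on a log2 axis, in each of the 6 H3K27me3 domains, each gap and the sums of both. Points are ratios and bars 95% exact intervals. H3K27me3 lies between 3.54 and 6.66 in the domains and at or below 2.87 in the gaps, and H3K4me3 stands above 1 over its whole interval only between domains 3 and 4, and in the sum outside domains, which includes that gap.

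Read at a coarser scale and scaled by autosomal totals, the region fell into 2 H3K27me3-rich blocks and a block close to WCE between them. That level depends on the scaling. The gap between domains 3 and 4, which holds the middle block, had an H3K27me3 log2 ratio of 0.33 by autosomal totals and 0.64 by 100 kb bins. A segmentation by binomial likelihood into segments of at least 20 kb, chosen after the data were seen, placed the boundaries at 44648001, 44904001, 45136001 and 45412001. The block around Pax2, 256 kb long, had 2351 H3K27me3 and 580 WCE reads (4.11, 3.76 to 4.51). The block of Tlx1 and Lbx1, 276 kb long, had 1942 and 623 reads (3.16, 2.89 to 3.47). The 232 kb between them had 825 and 772 reads (1.08, 0.982 to 1.198). The Pax2 block thus began 52 kb below the region and the block of Tlx1 and Lbx1 ended 12 kb above it. In the 140 kb beyond, up to 45552000, the ratio was 0.597 (0.495 to 0.718), so the upper boundary separated enrichment from a level below WCE.

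**Figure D4:**
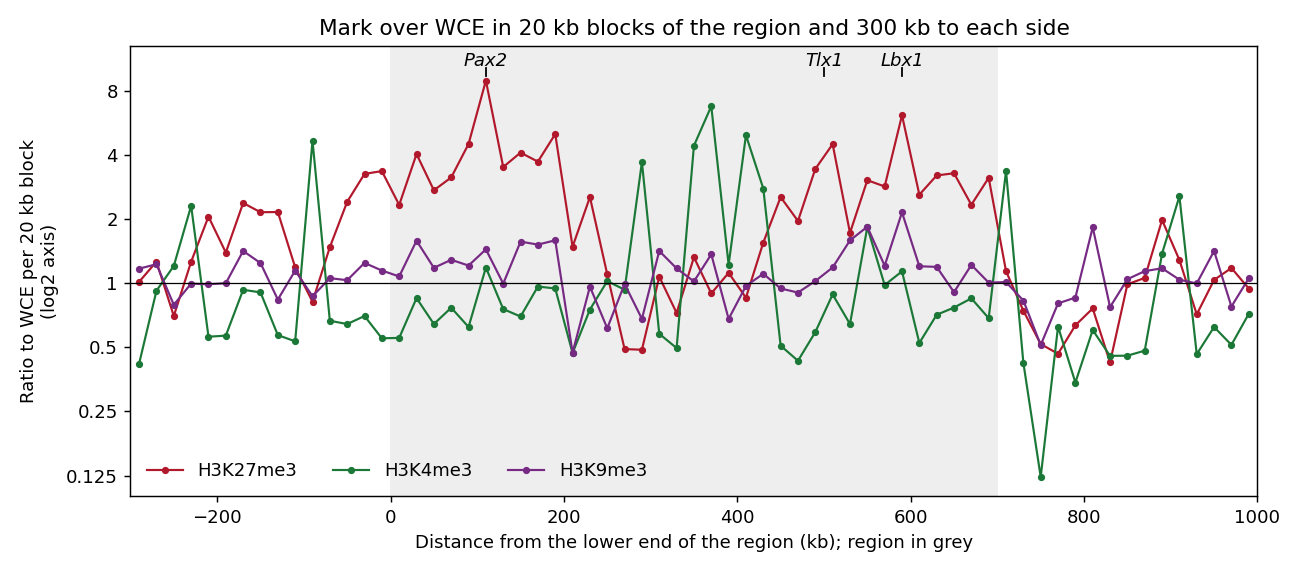
Ratio of H3K27me3, H3K4me3 and H3K9me3 to WCE per 20 kb block, on a log2 axis, over the region (grey) and 300 kb to each side, against the distance in kb from the lower end of the region. H3K27me3 reaches 8.94 in the block of Pax2 and 6.14 in that of Lbx1, and H3K4me3 reaches 6.78 in a block between them where the H3K27me3 ratio is 0.896.

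H3K4me3 was not used to choose the region, though its comparison shares the WCE reads with that of H3K27me3. It was called in 13 of 172 tested 4 kb tiles (7.56%), where 2.33% were called over the genome. Of the 13 tiles, 12 lay outside the H3K27me3 domains, all in the gap between the third domain and the Tlx1 domain, and 1 lay inside, in the Pax2 domain. In 1 kb tiles 19 of 657 were called (2.89%), where 1.19% were called over the genome, and 18 of these lay in the same gap. The H3K4me3 ratio over that gap was 2.46 (2.28 to 2.66), from 2291 H3K4me3 and 897 WCE reads, and the gap held H3K4me3 called tiles between 44984001 and 45136000 only.

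The 12 tiles formed 7 stretches, each 44 to 136 kb from the nearest H3K27me3 domain. The strongest by reads ran from 45068001 to 45076000, with 520 H3K4me3 and 41 WCE reads (12.2, 8.90 to 17.3) and 32 H3K27me3 reads (0.792, 0.483 to 1.29). The stretch at 44984001 held 166 H3K4me3 and 13 WCE reads (12.3, 7.01 to 23.6), of which 151 and 9 fell in its first 1 kb. Those from 45056001, 45096001 and 45108001, 8 kb each, held 306, 349 and 127 H3K4me3 reads against 30, 44 and 33 WCE reads. The stretch at 45040001, with 101 H3K4me3 and 13 WCE reads, was a single tile (7.50, 4.19 to 14.6).

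The last stretch before the block of Tlx1 and Lbx1, from 45128001 to 45136000, held 222 H3K4me3 and 46 WCE reads (4.66, 3.38 to 6.54), and it ended where the segmentation placed the start of that block. It had 71 H3K27me3 reads (1.57, 1.07 to 2.32). The interval of H3K27me3 included 1 in each of the other 6 stretches, whose ratios ran from 0.646 to 1.72. The highest of these, at 45040001, came from only 22 H3K27me3 and 13 WCE reads (0.828 to 3.71), so the stretches are not told apart by level. In the RefSeq gene order of GRCm38.p6, 8 protein-coding genes lie between Pax2 and Tlx1, and none lies between Tlx1 and Lbx1. They are Slf2, a factor of the DNA damage response, Sema4g, a semaphorin, Mrpl43, a mitochondrial ribosomal protein, Twnk, the mitochondrial DNA helicase, Lzts2, a leucine zipper protein, Pdzd7, a scaffold protein of hearing, Sfxn3, a mitochondrial transporter, and Kazald1, a secreted protein. No stretch was assigned to any of them. For 7 of these genes there were 11 promoter entries, with 2 to 39 CG dinucleotides and a median of 15.

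Inside the H3K27me3 domains H3K4me3 was close to WCE. The 6 domains together had 504 H3K4me3 and 530 WCE reads, a ratio of 0.917 (0.810 to 1.04). All tiles of the genome called for neither H3K4me3 nor H3K27me3 had a pooled ratio of 0.607. The direction of H3K4me3 in the domains relative to WCE depends on the scaling: its log2 ratio was -0.12 by autosomal totals, 0.60 when scaled by the tiles called for neither mark and 0.69 by the median over 100 kb bins. By domain the ratio ran from 0.753 (0.544 to 1.04) in the Tlx1 domain to 1.199 (0.856 to 1.68) in the Lbx1 domain, and all 6 intervals overlapped. Over the 54 tiles in the domains the median H3K4me3 ratio was 0.804, against 0.656 over 116 tiles of the region outside them, and 1.13 over 3281 called H3K27me3 tiles of the genome, in tiles with at least 3 WCE reads. These sets are unlike, because only 41 of the 54 domain tiles were called for H3K27me3. A call also favours tiles with few WCE reads, so the medians are not directly comparable.

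The single tile called for both marks, at 44808001, lay in the tall core of the Pax2 domain, at the stated position of the gene. It held 122 H3K27me3, 32 H3K4me3, 18 H3K9me3 and 10 WCE reads, with ratios of 12.4 (6.51 to 26.5) for H3K27me3 and 3.09 (1.48 to 7.04) for H3K4me3. Within it, 25 of the 32 H3K4me3 reads fell in the 1 kb tile at 44809001, which held 55 H3K27me3, 9 H3K9me3 and 4 WCE reads and was called for both marks at that scale too. The H3K4me3 peak was narrow, and H3K27me3 did not dip beneath it: no 1 kb tile of the domain held more than 55 H3K27me3 reads. This tile is 2.22% of the called H3K27me3 tiles and 7.69% of the called H3K4me3 tiles of the region, where the 294 tiles called for both over the genome are 8.05% and 2.17%. Reads were pooled over cells and alleles, so both marks on the same chromosomes and each mark in different cells cannot be told apart. At an adjusted p under 0.01 the tile was no longer called for H3K4me3, and scaling by 100 kb bins gave 5 tiles called for both marks.

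Smaller H3K4me3 peaks stood in or beside other domains, and their 4 kb tiles were not called for H3K4me3 with the scaling and tile starts used above. In the third domain, the tile at 44888001 held 33 H3K4me3 and 18 WCE reads (1.77, 0.967 to 3.34), spread over 12, 10 and 9 reads in the 1 kb tiles from 44889001 to 44892000. With tiles starting 2 kb later, the tile at 44890001, with 74 H3K27me3, 25 H3K4me3 and 6 WCE reads, was called for both marks. In the sixth domain, 29 of the 30 H3K4me3 reads of the tile at 45352001 fell in the 2 kb from 45354001, against 10 WCE reads there. With scaling by 100 kb bins, the tiles at 44888001 and 45352001 were both called for both marks, as were those at 44724001 in the first domain and 45284001 in the Lbx1 domain. Just below the Lbx1 domain, the 1 kb tile at 45274001 held 25 H3K4me3 reads, as many as the Pax2 peak, but 9 WCE and 11 H3K27me3 reads (H3K4me3 ratio 2.68, 1.21 to 6.52). The Tlx1 domain had no such peak: none of its 4 kb tiles exceeded 14 H3K4me3 reads, and the tile with 14 had 13 WCE reads.

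H3K9me3 was called in none of the 172 tested 4 kb tiles, where 0.0195% were called over the genome, and in none of the 661 tested 1 kb tiles, where 0.00117% were. Its pooled ratio was 1.48 (1.31 to 1.67) inside the domains, from 554 H3K9me3 and 530 WCE reads, and 0.999 (0.918 to 1.09) outside, from 936 and 1327 reads. The domains were drawn with the same WCE reads, 530 in 216 kb inside and 1327 in 484 kb outside, so these ratios are not independent of the choice of tiles and are given as a description. The ratio was highest in the Lbx1 domain, with 101 H3K9me3 and 66 WCE reads (2.17, 1.57 to 3.004). It was 1.14 both in the Tlx1 domain (0.824 to 1.56) and in the sixth (0.777 to 1.66). In the Lbx1 domain the tiles at 45284001 and 45288001 held 24 and 22 H3K9me3 reads against 7 and 12 WCE reads. With tiles starting 2 kb later, the tile at 45286001, with 25 H3K9me3, 56 H3K27me3, 13 H3K4me3 and 4 WCE reads, was called for H3K9me3.

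Reads of the other libraries varied with those of H3K27me3 from tile to tile inside the domains. Over the 54 tiles, H3K27me3 reads correlated with H3K4me3 reads (Pearson r 0.71, Spearman rho 0.69), with H3K9me3 reads (0.67 and 0.66) and with WCE reads (0.61 and 0.54). The points come from the same 4 libraries, and the mappability and base composition of a tile are common to all its counts, so these are descriptions with no test. The H3K9me3 and H3K4me3 values stand beside this variation in WCE, and its part in them was not tested. The median H3K9me3 ratio was 1.42 over the 54 tiles in these domains, against 1.65 over the 3281 called H3K27me3 tiles of the genome with at least 3 WCE reads. Only 41 of the 54 tiles were called for H3K27me3, so these medians are not directly comparable either.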

How the data were processed

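Each deposited file lists the signed base position of every read of 1 library, negative on the reverse strand. Reads were aligned to mm8 with Bowtie (options e 70, k 2, m 2, n 2, l 36), per the file headers, so reads matching more than 2 places are absent. Reads with 1 position were collapsed to 1 per signed position, shifted 60 bp along their strand and tiled in 1 kb and 4 kb. Whether the deposited positions count from 0 or 1 is not given in the sources used here, and coordinates may be off by 1 base. Mark reads were divided by WCE reads, each scaled by its autosomal total, with Clopper-Pearson 95% intervals. The region, its members and all lists were chosen with earlier results of these data known. The text names every domain, gap, H3K4me3 stretch and tile called for both marks, and the highest tiles of each domain. Smaller H3K4me3 peaks, H3K9me3 tiles and 1 kb values were picked after their values were seen. The calls, intervals and steps were run on simulated Poisson counts, with a step larger than most found here placed at the searched edge. Those simulations do not cover spread between libraries or the shallower edges. Alternatives changed repeats, shift, scaling, thresholds, tiles, control, joining and edge search. The region held 1857 WCE reads in 175 tiles of 4 kb, so ratios of single tiles are imprecise. Counts and tests used numpy 2.4.6 and, for the binomial, scipy 1.17.1, under Python 3.11.15, with figures from matplotlib 3.10.9.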

Additional observations from a re-analysis of the deposited data

How the results depend on the processing

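Keeping all reads, dropping the shift, shifting by 100 bp or adding reads with 2 positions moved no result of the region out of its counting interval or its 1.5-fold range. Scaling by the median over 100 kb bins gave 73 called H3K27me3 and 20 called H3K4me3 tiles, 5 called for both, and domains of 352 kb in all. Ratios were rescaled over the domains drawn by autosomal totals, not over the redrawn ones. Inside and outside those domains the pooled log2 ratios became 2.65 and 1.004 for H3K27me3 and 0.69 and 1.73 for H3K4me3. With tiles called for neither mark as the scale, chosen after seeing the data, those of H3K4me3 were 0.60 and 1.64. By both scalings H3K4me3 stood above WCE in every domain, in every gap between domains and at the upper end of the region. The smallest log2 ratios were those between domains 1 and 2 (0.12 and 0.025) and between domains 5 and 6 (0.11 and 0.016). At the upper end they were 0.28 and 0.19. Only the lower end stayed below WCE (-0.16 and -0.25). Of the domains and gaps, only the Lbx1 domain and the gap between the third domain and the Tlx1 domain were above WCE by autosomal totals. An adjusted p under 0.01 left 0 tiles called for both marks, and tiles starting 2 kb later gave 2, and 1 called for H3K9me3. With 1 kb tiles, 24 were called for H3K27me3, in 3 domains of 30 kb in all. The larger of tile and local WCE gave domains of 128 kb. Changes of join distance and of the least number of tiles kept the domain count and length within 1.5-fold. No paired analysis was possible because each group holds 1 library, and leaving out a replicate was not possible either.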

Other observations

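The 300 kb below the region held further H3K27me3 enrichment at lower levels. The 3 blocks of 20 kb next to the region, from 44640001 to 44700000, had H3K27me3 ratios of 2.41, 3.26 and 3.36, and a separate run from 44520001 to 44580000 had 2.38, 2.15 and 2.16. Between these runs, the block at 44600001 held 300 H3K4me3 and 62 WCE reads (4.67) with an H3K27me3 ratio of 0.819. Above the region the block at 45400001 held 171 H3K4me3 and 49 WCE reads (3.37), and the next 7 blocks had H3K27me3 ratios of 0.424 to 0.988. A called H3K27me3 tile at 44700001 belonged to a group of 4 called tiles from 44688001 to 44704000 that crosses the lower end of the region, with 130 H3K27me3 and 30 WCE reads.

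Reads with 2 reported positions were few in the region, with 67 H3K27me3, 39 H3K4me3, 34 H3K9me3 and 39 WCE reads, and no tile was called from them for any mark.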
